A study of Arabidopsis thaliana with 3 samples.

Results

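The genes described are the 283 microRNA (miRNA) genes of Arabidopsis thaliana that lie in the chromosome arms, of 326 miRNA genes on the 5 chromosomes. They are all genes of the annotation class miRNA whose midpoint falls outside the centromeric part of each chromosome, and all 283 carry a MIR symbol with a family number. The arms hold 31618 annotated genes of every class. The edge of the centromeric part was read from where the deposited arm and centromeric region lists meet, and the cover of a gene played no part in choosing it.

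The tissue was leaves aged 2 to 3 weeks. Chromatin was cut into nucleosomes with micrococcal nuclease and immunoprecipitated with an antibody to H2A.W.7 (1 library) or to H2A.W.6 (1 library), beside 1 control library. The labels name no genotype, ecotype or treatment, so the groups differ in the antibody as far as they are described. Each immunoprecipitation used 4 g of leaves, and a region present in some of the cells cannot be told apart from a weaker region present in all of them. The leaf label could not be checked against markers, as the lists hold positions and no expression. The study asked about the DNA damage response in closed and open chromatin, and the lists show where each histone variant was enriched.

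A miRNA gene is transcribed into a hairpin that the nuclease DCL1 cuts to a small RNA, which ARGONAUTE1 then uses to find and cut or block matching messenger RNAs. A core of families is conserved across flowering plants and mostly restrains transcription factors of development and genes of nutrient supply. Many other families are known from few species, often have no established target, and some are known to arise from transposons or inverted gene copies. H2A.W.7 and H2A.W.6 are histone H2A variants known to mark plant heterochromatin, where transposons are kept silent, and H2A.W.7 carries the motif that damage kinases phosphorylate. The conserved class here was MIR156, MIR157, MIR159, MIR160, MIR162, MIR164 to MIR172, MIR319, MIR390, MIR393 to MIR399, MIR403 and MIR408. It had 89 arm genes in 24 families, against 194 genes in the other families.

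The deposited lists give the start and end of each enriched region and no height, so the depth behind a region is unknown. The arm lists held 7750 regions for H2A.W.7, covering 4.42 Mb or 4.70% of the arms, and 3982 regions for H2A.W.6, covering 2.25 Mb or 2.39%. The smallest region in the lists was 200 bp. With a single library per variant, differences between H2A.W.7 and H2A.W.6 have no replicates behind them, and p-values are left out. Intervals are 95% Wilson intervals over genes. They cover counting error only and treat genes as independent, although the 283 genes fall into 240 loci when genes 10 kb or less apart are joined. Copies of a family on different chromosomes are also counted as separate genes.

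No arm gene of the conserved families listed above had a base of either variant in it, while H2A.W.7 covered 18.6% of the genes of other families. A gene was counted as covered when 50% or more of its annotated length lay in regions. H2A.W.7 covered 36 of the 283 arm miRNA genes (12.7%), against 3.92% of all arm genes. H2A.W.6 covered 9 of the 283 (3.18%), against 2.74% of all arm genes, so that its share among miRNA genes was near the background. All these genes belonged to the other families. By class, H2A.W.7 covered 0 of 89 conserved genes, which allows a share of up to 3.37% (3 genes of the total, where the Wilson upper bound is 4.14%), and 36 of 194 other genes (interval 13.7 to 24.6). H2A.W.6 covered 0 of 89 conserved genes and 9 of 194 other genes (4.64%, 2.46 to 8.58). The count of 0 depends on which families are called conserved. With every family number from MIR156 to MIR408 taken instead, the class has 102 genes, of which H2A.W.7 had a base in 3 (MIR405a, MIR405b and MIR406) and covered 1 (MIR405b, 79.8% of the gene), and H2A.W.6 had a base in 0. H2A.W.7 then reached 9.80% of the class within 1 kb.

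**Figure D1:**
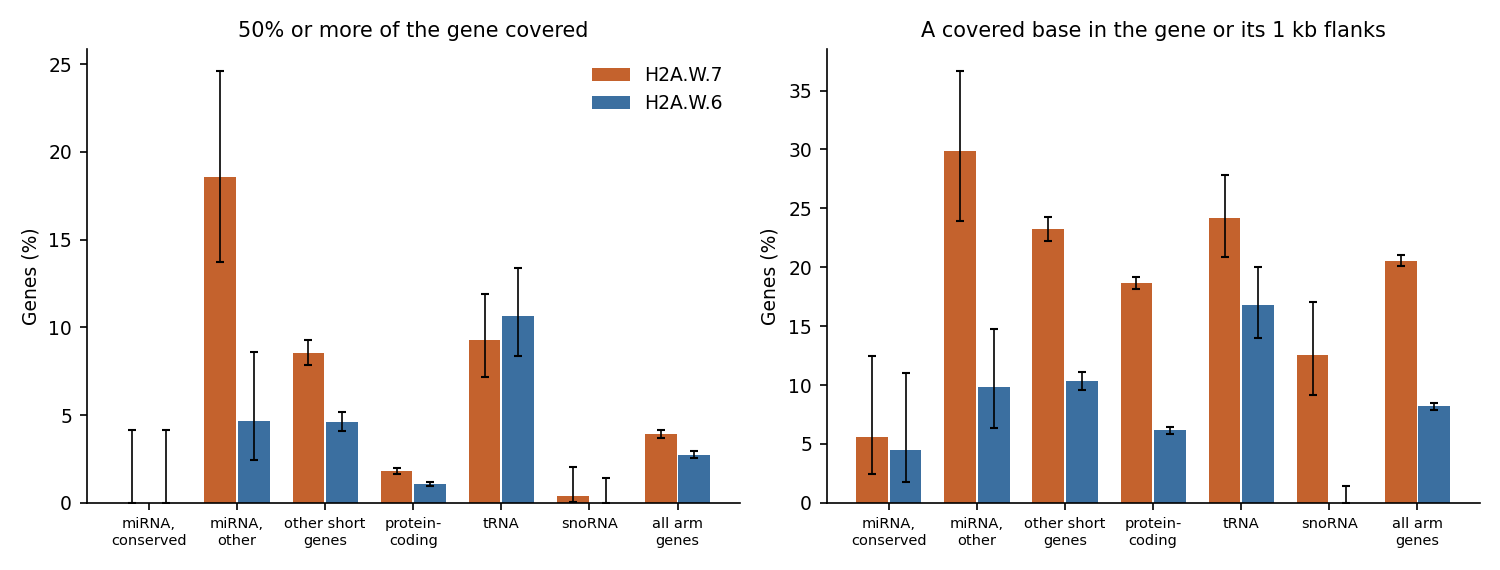
Share of genes of each class in the arms with 50% or more of the gene covered (left) and with a covered base in the gene or its 1 kb flanks (right), for H2A.W.7 and H2A.W.6; other short genes are those of at most 689 bp, bars are shares and error lines are 95% Wilson intervals over genes. Other miRNA genes reach 18.6% for H2A.W.7 in the left plot and conserved miRNA genes stand at 0.

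The same contrast held for a single covered base in the gene. H2A.W.7 had a base in 0 of 89 conserved genes and in 39 of 194 other genes (20.1%), against 7.25% of all arm genes. H2A.W.6 had one in 0 of 89 conserved genes and in 11 of 194 other genes (5.67%), against 4.4% of all arm genes. Cover was mostly all or none, and 218 of the 283 genes are shorter than 200 bp, the length of the smallest region. Of the 39 genes with an H2A.W.7 base 28 were covered over their whole length, and of the 11 with an H2A.W.6 base 7 were. The least covered of the genes past 50% were MIR5635a at 78.3% for H2A.W.7 and MIR5665 at 69.1% for H2A.W.6, and the nearest below were MIR406 at 31.0% under H2A.W.7 and MIR3932b at 37.3% under H2A.W.6.

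Regions came within 1 kb of 5 of the 89 conserved genes for H2A.W.7 (5.62%, 2.42 to 12.5), against 58 of the 194 other genes (29.9%, 23.9 to 36.7). Over all arm genes this share was 20.6%, so the conserved genes stood below it and the other genes above it. For H2A.W.6 it was 4 of 89 conserved genes (4.49%, 1.76 to 11.0) and 19 of 194 other genes (9.79%, 6.36 to 14.8), against 8.18% of all arm genes. The intervals of the 2 classes overlap for H2A.W.6 and do not for H2A.W.7. Neither variant came within 1 kb of 82 of 89 conserved genes (92.1%) and of 135 of 194 other genes (69.6%). The share of all arm genes reached by neither was not counted.

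As a mean over genes, H2A.W.7 covered 0.992% of a conserved gene with its 1 kb flanks and 11.8% of an other gene with its flanks. The means for H2A.W.6 were 0.23% for conserved genes and 3.52% for other genes. Medians were 0 in both classes for both variants, and over all arm genes H2A.W.7 covered a mean of 4.24% and H2A.W.6 2.16%. The values of the classes overlap, and most genes of each had no region near them. The highest value of a conserved gene was 24.1% with H2A.W.7 and 10.2% with H2A.W.6. In the other families it was 100% for both.

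**Figure D2:**
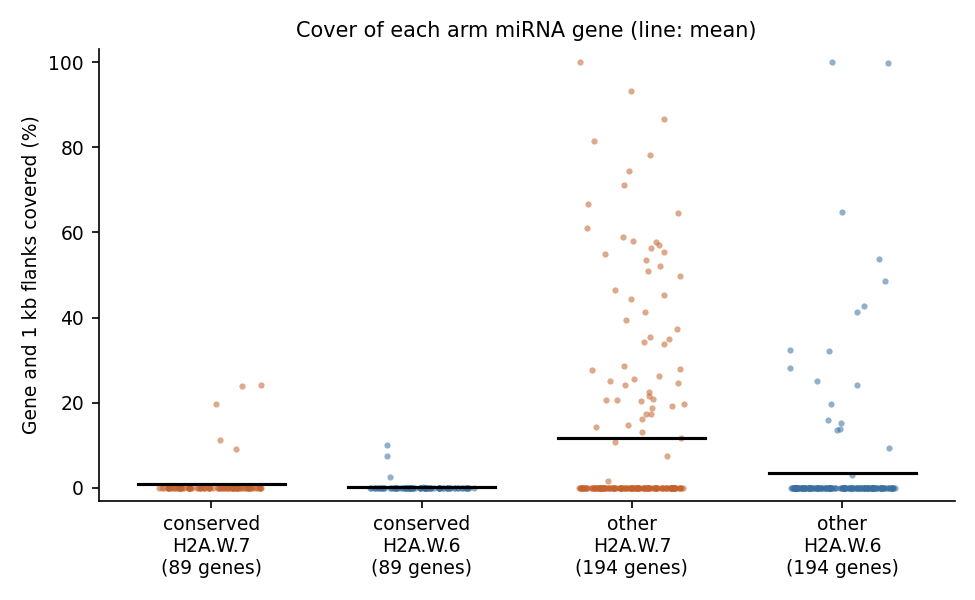
Percent of each arm miRNA gene and its 1 kb flanks covered by H2A.W.7 or H2A.W.6, for the conserved and the other families; each point is a gene, spread sideways to be seen, and the line is the mean. Conserved genes lie at or below 24.1%, and genes of other families extend to 100%.

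Gene length differs between these sets. Arm miRNA genes have a median length of 141 bp and arm genes as a whole of 1832 bp. Among the 6158 other arm genes no longer than the longest arm miRNA gene (689 bp), H2A.W.7 covered 8.54% and H2A.W.6 covered 4.61%. The other miRNA families, at 18.6% with H2A.W.7 and 4.64% with H2A.W.6, were above the short genes for H2A.W.7 and level with them for H2A.W.6. Within 1 kb, H2A.W.7 reached 23.2% of these short genes (22.2 to 24.3), against 29.9% of the other families (23.9 to 36.7), and the intervals overlap. H2A.W.6 reached 10.3% of the short genes and 9.79% of the other families. Other classes of small RNA gene differed among themselves. H2A.W.7 covered 1 of 271 snoRNA genes and 54 of 583 tRNA genes (9.26%), and H2A.W.6 covered 0 of 271 snoRNA genes, which allows a share of up to 1.11% (3 genes of the total, Wilson upper bound 1.40%), and 62 tRNA genes (10.6%). Protein-coding genes of the arms, taken at any length, were covered in 1.82% of cases by H2A.W.7 and 1.05% by H2A.W.6. These low shares went with length. Restricting them to at most 689 bp left 1851 genes, with a share of 10.3% under H2A.W.7 and 4.86% under H2A.W.6. The other miRNA families stayed above these short protein-coding genes with H2A.W.7 only.

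Position along the arm also differs between the classes. Conserved genes lay a median of 5.93 Mb from the edge of the centromeric part and other genes 4.65 Mb, against 5.72 Mb for all arm genes. The shares of reached genes were therefore set out by distance. Within 1 Mb of the edge H2A.W.7 reached 0 of 3 conserved genes and 17 of 28 other genes (60.7%), against 46.2% of all arm genes there. Between 1 and 3 Mb it reached 2 of 20 conserved genes and 19 of 47 other genes (40.4%), against 30.7%. Between 3 and 6 Mb the counts were 2 of 22 conserved genes and 13 of 55 other genes (23.6%), against 21.5%. At 6 Mb or more they were 1 of 44 conserved genes and 9 of 64 other genes (14.1%), against 11.1%. For H2A.W.7 conserved genes were below other genes in each class of distance, but the intervals of conserved and other genes overlap in each. Nearest the edge they were 0 to 56.1 for conserved and 42.4 to 76.4 for other genes. Farthest out they were 0.402 to 11.8 and 7.58 to 24.6. The intervals of the other genes also took in the background share in each class of distance. For H2A.W.6 the order turned round between 1 and 3 Mb, with 3 of 20 conserved genes (15.0%) and 6 of 47 other genes (12.8%), and their intervals overlap. Elsewhere H2A.W.6 reached 0 of 3, 1 of 22 and 0 of 44 conserved genes, and 7 of 28, 4 of 55 and 2 of 64 other genes, by growing distance.

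H2A.W.7 covered the gene itself more often than the background in every class of distance among the other families. The shares were 28.6% of 28 genes under 1 Mb from the edge, against 11.2% of all arm genes there, and 25.5% of 47 genes from 1 to 3 Mb, against 5.59%. They were 16.4% of 55 genes from 3 to 6 Mb, against 4.32%, and 10.9% of 64 genes at 6 Mb or more, against 1.61%. The lower bounds of the 4 intervals, 15.3%, 15.3%, 8.86% and 5.40%, lay above these background shares. These intervals count copies of a family as separate genes, and 6 MIR8167 and 4 MIR5635 genes are among those covered. For H2A.W.6 the shares of other genes covered were 7.14%, 6.38%, 5.45% and 1.56% over the same classes, against 9.15%, 3.84%, 3.29% and 0.743% of all arm genes, and all 4 intervals took in the background. Gene length was not matched in this comparison.

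**Figure D3:**
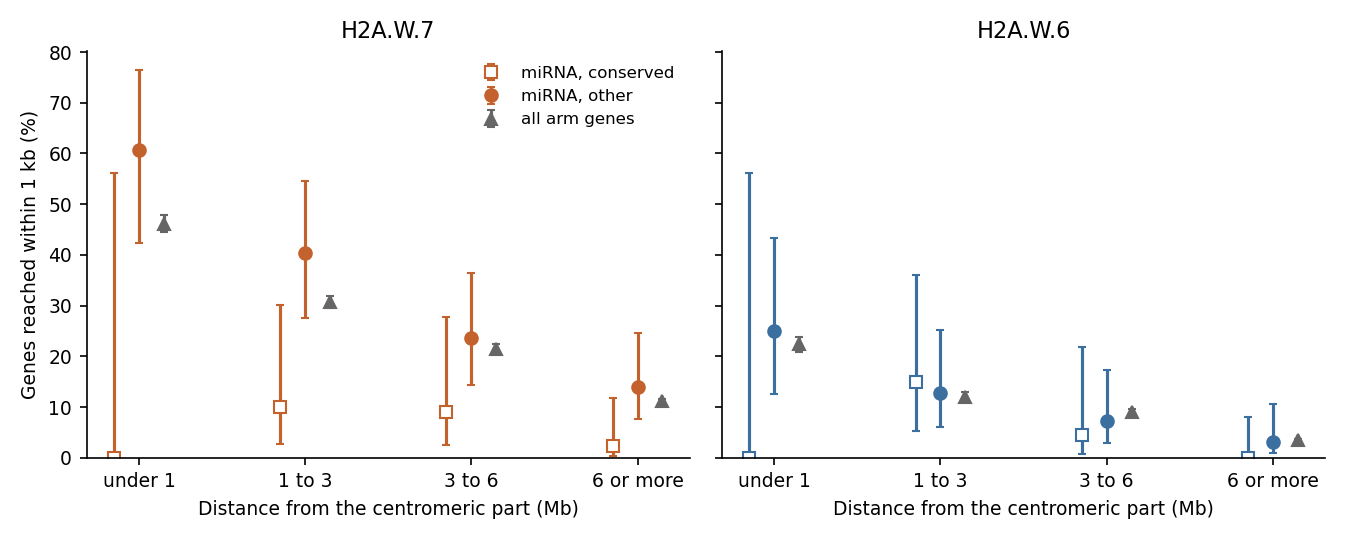
Share of genes with a covered base within 1 kb, by distance from the centromeric part in Mb, for conserved miRNA genes, other miRNA genes and all arm genes; error lines are 95% Wilson intervals over genes. Shares fall with distance in all 3 sets for H2A.W.7 beyond 1 Mb, and conserved genes lie lowest at each distance for H2A.W.7 but not for H2A.W.6 between 1 and 3 Mb.

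Cover by H2A.W.7 was highest inside the genes of other families, and neither variant was found within 300 bp of conserved genes. In the other families H2A.W.7 covered 18.9% of all bases inside the genes, 16.8% of the first 100 bp outside and 9.77% between 900 and 1000 bp. It covered 5.45% between 2000 and 2100 bp and 8.70% between 2700 and 2800 bp, against 4.41% and 4.57% at those distances from all arm genes, so cover stayed above that of all arm genes in both steps. H2A.W.6 covered 5.33% inside the genes, 4.41% of the first 100 bp, 2.69% between 900 and 1000 bp and 4.03% between 2000 and 2100 bp, against 1.86%, 2.14% and 2.23% in those 3 steps outside all arm genes. Around conserved genes no base was covered by either variant in the first 300 bp, and the nearest H2A.W.7 region began 376 bp from MIR395c. Between 900 and 1000 bp from conserved genes H2A.W.7 covered 2.30% and H2A.W.6 0.904%. Protein-coding genes had 2.22% under H2A.W.7 and 0.696% under H2A.W.6 in the first 100 bp outside the gene.

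**Figure D4:**
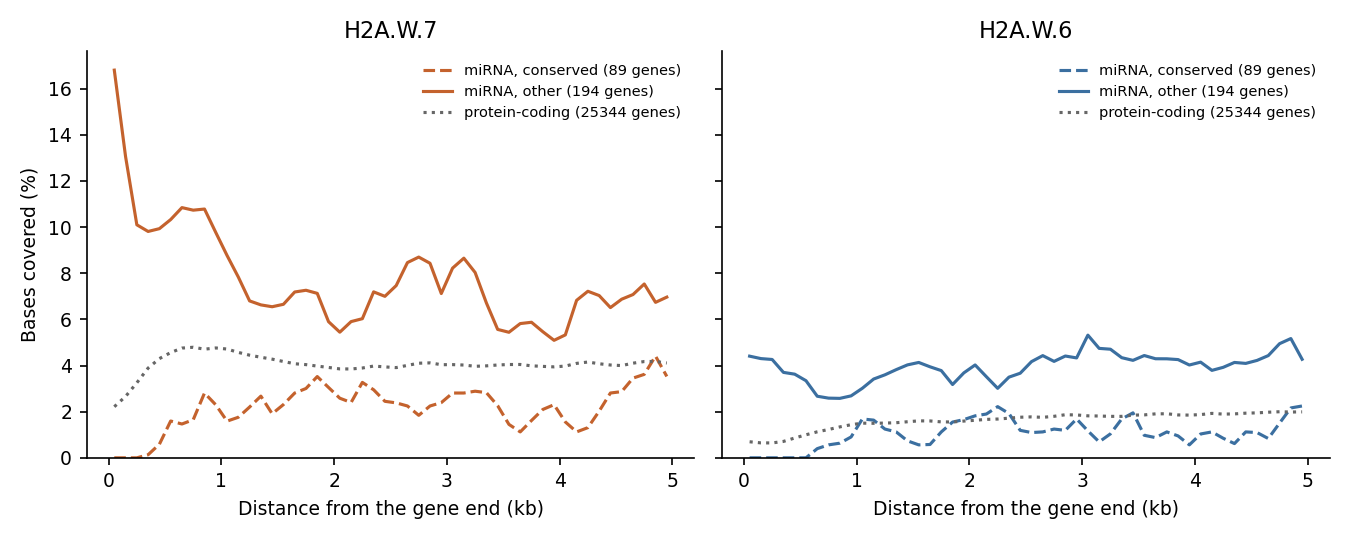
Percent of bases covered in steps of 100 bp outward from both ends of the gene, for conserved miRNA genes, other miRNA genes and arm protein-coding genes, with H2A.W.7 on the left and H2A.W.6 on the right. The line of the other families starts at 16.8% in the H2A.W.7 plot and 4.41% in the H2A.W.6 plot, and that of conserved families starts at 0 in both.

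The conserved genes with a region within 1 kb were few and can be named. MIR395a and MIR395c lie in a tandem group on chromosome 1 and make miR395, which acts on ATP sulfurylase and sulfate transporter messages when sulfate is scarce. H2A.W.7 covered 24.1% of MIR395a with its flanks and 24.0% of MIR395c, and H2A.W.6 covered 0% of MIR395a and 7.57% of MIR395c. The region beside MIR395a spans chr1:9362146-9362700 for H2A.W.7, and those beside MIR395c span chr1:9367556-9367840 and chr1:9367961-9369105 (TAIR10). The surroundings of both, from 1 to 10 kb away on each side, were also well covered, at 25.6% by H2A.W.7 and 22.9% by H2A.W.6 for MIR395a. A pseudogene, AT1G26990, is the next gene beyond MIR395c. How often uncovered miRNA genes, or arm genes as a whole, have a pseudogene neighbour was not counted. This holds for each pseudogene neighbour named below.

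MIR403, whose miRNA acts on the message of AGO2, had 19.7% of the gene and flanks under H2A.W.7 (chr2:19414116-19414535) and 0% under H2A.W.6. No region of either variant was found in its surroundings from 1 to 10 kb. MIR165b, whose miRNA represses HD-ZIP III genes of leaf polarity, had 11.2% under H2A.W.7 and 0% under H2A.W.6. MIR156i, which overlaps SPL4, a gene of the SPL family that miR156 restrains to hold plants in the juvenile phase, had 9.24% under H2A.W.7 and 2.64% under H2A.W.6. MIR169k and MIR169l, from a tandem group whose miRNA acts on NF-YA transcription factors, had no H2A.W.7 base, and H2A.W.6 covered 10.2% of MIR169k and 0.136% of MIR169l through a shared region of 225 bp (chr3:9874671-9874895). All these regions lie outside the miRNA genes, at 376 bp or more with H2A.W.7 and 629 bp or more with H2A.W.6. In 19 of the 24 conserved families, among them MIR166, MIR167, MIR171, MIR172, MIR319, MIR398 and MIR399, no member was reached by either variant. The same held for 123 other families, so unreached families were the majority in both classes. H2A.W.7 reached a member in 4 conserved and 45 other families, and H2A.W.6 in 3 conserved and 18 other families. These counts cannot be compared directly, because the other class holds many more families. As a share of its families, the conserved class was below the other class for H2A.W.7 and slightly above it for H2A.W.6. A family counts as reached here when any of its members was.

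Among the 37 genes of other families covered by either variant, most had H2A.W.7 alone. In 27 of them H2A.W.7 covered the gene and no H2A.W.6 base lay in it, 9.54% of arm miRNA genes, against 0.971% of all arm genes and 3.57% of the other short genes. For 23 of the 27 the 1 kb flanks held no H2A.W.6 base either. H2A.W.6 alone was found at MIR841a, 1 of 283 genes, against 0.104% of all arm genes. Both variants covered 8 genes (2.83% of arm miRNA genes), and the same share over all arm genes was not counted.

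The MIR8167 family was covered by H2A.W.7 in every member. It has 6 genes of 75 bp on chromosomes 2, 3 and 5, at 1.57 to 9.30 Mb from the centromeric part, and all 6 were covered over their whole length. These genes overlap no other annotated gene. H2A.W.7 covered 93.2% of the gene and flanks of MIR8167d, 71.1% of MIR8167e, 66.7% of MIR8167a, 61.0% of MIR8167b, 57.1% of MIR8167c and 53.5% of MIR8167f. H2A.W.6 covered 41.4% of MIR8167a and 0% of the other 5, where its nearest region was 14441 to 262913 bp away. The cover was local, and 1 to 10 kb away H2A.W.7 covered between 0% (MIR8167e and MIR8167f) and 3.01% (MIR8167a). The region over MIR8167d spans chr5:7056636-7058140, in the gap between SUS1, a sucrose synthase gene, and AT5G20840, and that over MIR8167e spans chr5:23431276-23432750. How reads that fit several copies of a sequence were placed is not given in the sources used here, and this holds for every family with several genes.

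The 4 MIR5635 genes were likewise covered by H2A.W.7, over 78.3% of MIR5635a and 100% of MIR5635b, MIR5635c and MIR5635d, with no H2A.W.6 base within 1 kb of any. Their regions were shorter, and gene and flanks were covered over 14.7% for MIR5635a, 28.6% for MIR5635b, 24.6% for MIR5635c and 27.7% for MIR5635d. MIR5635a sits between EFR, the receptor of a bacterial elongation factor peptide, and the myosin gene XIK, in a region at chr5:6925991-6926350. MIR5635d differs from the others in its surroundings, of which H2A.W.7 covered 27.8% and H2A.W.6 22.8%, against 0% to 3.97% by H2A.W.7 and 0% by H2A.W.6 for the other 3.

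MIR5645 has members on both sides of the border. In the arms H2A.W.7 covered MIR5645a and MIR5645f over 100% of the gene and H2A.W.6 covered 0% of each. In the centromeric part the 4 members MIR5645b to MIR5645e had 56.1% to 100% of the gene under H2A.W.7 and 65.7% to 100% under H2A.W.6. H2A.W.7 covered 100% of MIR2933a and of MIR2933b, and H2A.W.6 covered 100% of MIR2933a and 0% of MIR2933b. With the flanks included, H2A.W.7 covered 55.4% of MIR2933a and H2A.W.6 covered 64.7%, while MIR2933b had 86.6% under H2A.W.7 and 42.8% under H2A.W.6. Pseudogenes are neighbours of both, AT1G32840 of MIR2933a and AT3G47260 of MIR2933b.

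**Figure D5:**
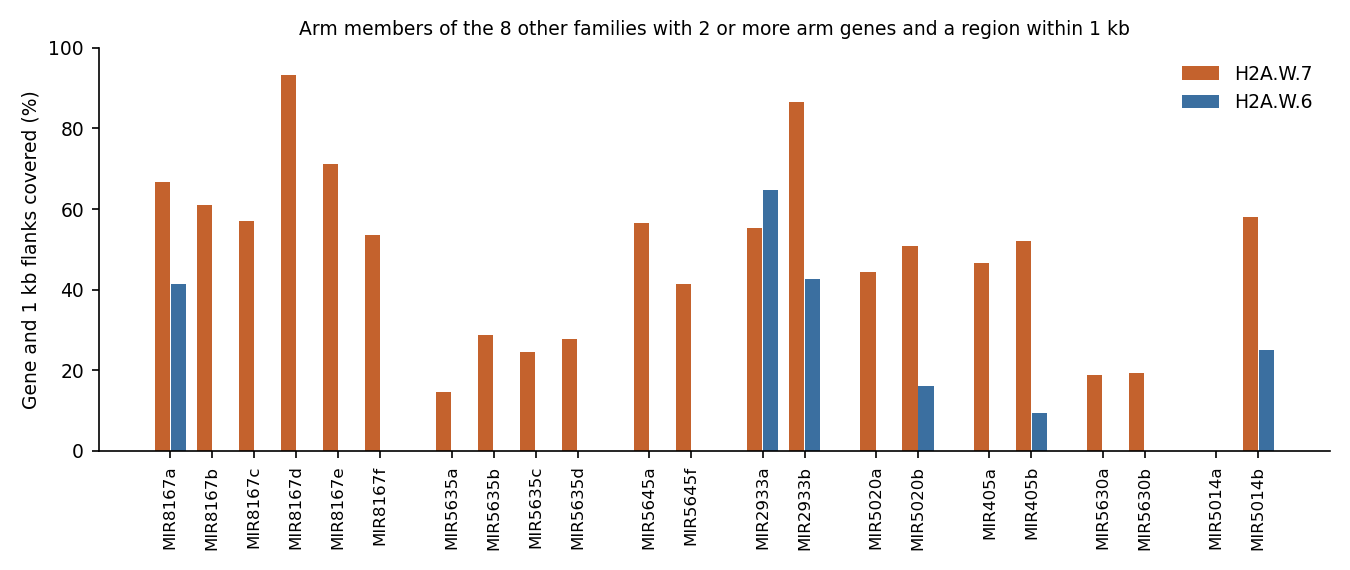
Percent of the gene and its 1 kb flanks covered by H2A.W.7 and H2A.W.6 in the arm members of the 8 other families with 2 or more arm genes and a region within 1 kb. H2A.W.7 covers 53.5% to 93.2% at the 6 MIR8167 genes, and H2A.W.6 reaches MIR8167a alone of these.

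Of the 19 other families with 2 or more arm genes, 4 had every arm member covered by H2A.W.7, namely MIR8167, MIR5635, MIR5645 and MIR2933. MIR405, MIR5014 and MIR5020 had 1 of 2 arm members covered, and MIR5630a and MIR5630b were reached in the flanks alone, over 18.8% and 19.3% of gene and flanks. In the other 11 families, among them MIR158, MIR845, MIR858 and MIR2111, no arm member was reached by either variant. Of the 20 conserved families with 2 or more arm genes, 16 had no member reached.

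Several single genes had H2A.W.7 and little or no H2A.W.6. MIR426 had 78.2% of gene and flanks under H2A.W.7, in a neighbourhood where H2A.W.7 covered 36.8% and H2A.W.6 25.4%, and H2A.W.6 covered 0% of gene and flanks. H2A.W.7 covered 58.9% of MIR849, 57.8% of MIR5641 and 54.9% of MIR5653 with their flanks, and H2A.W.6 covered 0% of each. The next gene to MIR426 is a pseudogene, AT1G60020. In MIR5641 the regions lay mostly beside the gene, of which H2A.W.7 covered 18.5%. The remaining genes covered by H2A.W.7 with no H2A.W.6 base within 1 kb were MIR776, MIR5020a, MIR5628, MIR5644, MIR5647, MIR5662, MIR8121, MIR8165 and MIR8172. In MIR405b, MIR2933b, MIR5014b and MIR5666 H2A.W.6 was found in the flanks and not in the gene, and MIR3932b had 100% of the gene under H2A.W.7 and 37.3% under H2A.W.6.

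The genes covered by both variants were MIR2933a, MIR4239, MIR5639, MIR5642b, MIR5665, MIR8167a, MIR8171 and MIR8174. MIR5642b lies at the left end of chromosome 2, 529 bp from an rRNA gene (AT2G01010), inside long regions at chr2:991-10425 (H2A.W.7) and chr2:1001-10365 (H2A.W.6). Both variants covered 100% of gene and flanks. Genes for rRNA have many copies, and how reads from such copies were placed is not given in the sources used here. MIR5639 had 64.6% under H2A.W.7 and 99.8% under H2A.W.6, the largest difference towards H2A.W.6 among arm miRNA genes. MIR8174, inside the pseudogene AT3G45253, had 74.3% under H2A.W.7 and 53.8% under H2A.W.6. MIR4239, with the pseudogene AT4G21360 next to it, had 81.5% under H2A.W.7 and 48.5% under H2A.W.6. MIR8171, far out on the arm at 9.59 Mb, had 27.8% under H2A.W.7 and 24.3% under H2A.W.6, with no base of either variant between 1 and 10 kb away.

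MIR841a was the member covered by H2A.W.6 and not by H2A.W.7. It overlaps HTA4, a gene of the histone H2A family, and H2A.W.6 covered 71.7% of the gene (chr4:7885311-7886020) and H2A.W.7 0%. With the flanks H2A.W.7 covered 0% and H2A.W.6 32.1%. Counting all members, cover of gene and flanks was higher with H2A.W.7 in 59 of 283 genes, against 18.9% of all arm genes, and lower in 6, against 2.09%. The 59 come to 20.8% and the 6 to 2.12%, so both shares were near the background. The 6 were MIR5639, MIR841a, MIR169k, MIR2933a, MIR5666 and MIR169l. MIR5666 had 25.1% under H2A.W.7 and 32.3% under H2A.W.6.

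Whether a miRNA gene lies inside another gene also went with its cover by H2A.W.7. Of the conserved genes 10 of 89 overlap another gene and of the other families 100 of 194, mostly protein-coding genes (7 and 78). Among other genes that overlap no annotated gene, H2A.W.7 covered 27 of 94 (28.7%) and H2A.W.6 5 of 94 (5.32%). Among those that overlap another gene, H2A.W.7 covered 9 of 100 and H2A.W.6 4 of 100. Arm genes of other classes of at most 689 bp stood at 8.54% for H2A.W.7 and 4.61% for H2A.W.6. Both sets were near that share for H2A.W.6, and the overlapping genes were near it for H2A.W.7. Distance from the edge and family were not matched, and the genes standing alone include the 6 MIR8167 genes. All 79 conserved genes outside other genes were uncovered by both, so the classes differed in the same direction within genes standing alone. Overlap with a pseudogene was found for 5 arm miRNA genes, of which 1, MIR8174, was covered by both variants.

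Family numbers are given in the order in which miRNA families were registered, and cover by H2A.W.7 was set out by number, a grouping made after the values were seen. Among other families H2A.W.7 covered 2 of 22 genes with numbers under 500, 2 of 63 from 500 to under 1000, 4 of 24 from 1000 to under 5000, 17 of 62 from 5000 to under 6000 and 11 of 23 from 8000 up. All arm genes stood at 3.92%, and the 3.17% of the class from 500 to under 1000 did not exceed it. H2A.W.6 covered 0, 1, 2, 3 and 3 genes in the same order. The classes also differ in place, with a median of 3.08 Mb from the edge for numbers from 5000 to under 6000 and 6.17 Mb for numbers under 500, and the part of distance in this pattern was not tested. Of the 11 genes in the last class 6 are the MIR8167 genes. Among early members of the other families, MIR161, which acts on messages of PPR proteins, had 25.6% of gene and flanks under H2A.W.7, and MIR163, which acts on methyltransferase messages, had 14.4%, both with 0% under H2A.W.6 and no base in the gene. MIR823, whose miRNA acts on the DNA methyltransferase gene CMT3, had 11.6% under H2A.W.7 and 0% under H2A.W.6. These 3 were chosen after their values were seen.

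In the centromeric part, for comparison, miRNA genes were covered more often than in the arms, and the intervals of the variants overlap. Regions there span 11.4 Mb for H2A.W.7 and 14.6 Mb for H2A.W.6. The share over all genes of that part was not counted, so these shares have no background beside them. H2A.W.7 covered 24 of 43 (55.8%, 41.1 to 69.6) and H2A.W.6 covered 23 of 43 (53.5%, 38.9 to 67.5). The 5 MIR854 genes were covered over 100% of the gene by both. Of the 4 conserved genes there, MIR164c, MIR396a, MIR396b and MIR397a, H2A.W.7 covered MIR397a over 66.4% of the gene, and H2A.W.6 had no base within 1 kb of any of them. MIR397a makes a miRNA that acts on laccase messages.

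The genes that make and use miRNAs, and known targets of the conserved families, were set beside all arm genes. Of 25 genes of miRNA biogenesis, action and turnover 23 lie in the arms. Regions of H2A.W.7 came within 1 kb of 7 of these 23 (30.4%), against 20.6% of all arm genes. Regions of H2A.W.6 came within 1 kb of 0, which allows a share of up to 13.0% (3 genes of the total), against 8.18%. H2A.W.7 had a base in 1 of the 23 (4.35%), against 7.25% of all arm genes, and H2A.W.6 in none, against 4.4%. The 1 gene was CBP20, a subunit of the nuclear cap-binding complex, with 5.80% of the gene under H2A.W.7. ABH1, its larger partner, lies in the centromeric part and had 0.113% of the gene under H2A.W.7. DCL1, HYL1, SE and AGO1 had no base of either variant in the gene. Of 34 target genes 33 lie in the arms, and regions came within 1 kb of 3 of them with H2A.W.7 (9.09%) and of 1 with H2A.W.6 (3.03%). TCP4, a leaf growth regulator under miR319, had 9.10% of the gene under H2A.W.7 and 0% under H2A.W.6. AFB2, an auxin receptor under miR393, had 0% under H2A.W.7 and 7.19% under H2A.W.6. The remaining 32 targets had no base of either variant in the gene. Each variant thus had a base in 1 of the 33 arm targets (3.03%). Counts of 1 gene are too small to set either list apart from all arm genes.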

How the data were processed

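Libraries were H2A.W.7 and H2A.W.6 immunoprecipitations and a control, 1 each, read over 50 bp. The files hold region starts and ends (unit: other, positions in base pairs), deposited by the authors as arm and centromeric lists for each variant. TAIR10 and bedtools are named in the submitters' processing notes. The aligner, region caller and threshold, and how the control entered, are not stated in those notes or labels. The control was not analysed on its own. Starts lie on a grid of 5 bp, as do all ends but 2 in the H2A.W.7 arm list, so covered shares carry that rounding.

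Genes came from a RefSeq table of TAIR10.1 (38312 genes, 37899 on the 5 chromosomes), whereas the regions use TAIR10, so no gene coordinate is printed. As a check on the frame, regions were shifted by 300, 1000 and 10000 bp each way along the chromosomes. Cover of arm pseudogenes by H2A.W.6 and of other miRNA genes by H2A.W.7 was highest at no shift on 5 of 5 chromosomes. An offset well under 300 bp could not be seen this way. The table has no strand, so flanks are both sides of a gene. No sequence was used here.

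The edge of the centromeric part was the multiple of 100 kb lying between the arm and centromeric regions (12.4 to 17.5 Mb on chromosome 1, for example). Covered bases were counted with Python 3.11.15, numpy 2.4.6 and pandas 2.3.3, and intervals with statsmodels 0.14.6. The count was tested on simulated regions, where 0 of 2000 intervals differed from a base-by-base count and 100 of 100 genes placed above the 50% limit were counted. Genes were named when 50% or more was covered by either variant, for the 10 largest differences towards H2A.W.7 and the 5 towards H2A.W.6, for the 5 most covered conserved genes with flanks, and for pathway genes with a covered base. Names outside this rule were chosen with their values known. The members and lists were chosen with earlier results of these data known. Alternatives changed flanks, region length, gaps joined, minimum cover, families counted once, the reading of the conserved class and the chromosomes used.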

Additional observations from a re-analysis of the deposited data

How the results depend on the processing

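Of the values recomputed for 14 results under 14 alternatives, 135 stayed within their interval or within 1.5 times, and 21 did not. A region came within reach of a smaller share of conserved genes than of other genes in 13 of 13 settings for each variant. These settings share most of their genes. On single chromosomes H2A.W.7 kept this order on each, and H2A.W.6 did not. H2A.W.6 reached 2 of 23 conserved (8.70%) and 5 of 60 other genes (8.33%) on chromosome 1. On chromosome 3 it reached 2 of 17 (11.8%) and 3 of 29 (10.3%). On chromosomes 2, 4 and 5 it reached other genes and no conserved gene. With 500 bp flanks H2A.W.7 reached 17.7% of all arm miRNA genes and 2.25% of conserved genes, with a mean cover of 0.132% in conserved genes, and H2A.W.6 reached 0% of conserved genes with a mean of 0%. With 2 kb flanks H2A.W.7 reached 29.3% of all and 13.5% of conserved genes (mean 1.71%), and H2A.W.6 reached 12.4% of all and 14.9% of other genes (conserved mean 0.694%). Keeping regions at or above the median length of their list, H2A.W.6 reached 4.24% of all, 1.12% of conserved and 5.67% of other genes (conserved mean 0.0851%). H2A.W.6 reached 1.12% of conserved genes when 200 covered bases were required, and 1.71% when each family counted once (mean 0.0942%). With every number from MIR156 to MIR408 taken as conserved, the conserved mean for H2A.W.7 was 2.40%. Without chromosome 1, which holds MIR395a and MIR395c, that mean was 0.468%, and without chromosome 3, which holds MIR169k and MIR169l, the H2A.W.6 mean was 0.142%. The cause was not tested beyond what each alternative changes. The share of arm miRNA genes covered over 50% ranged from 12.2% to 14% for H2A.W.7 and from 2.11% to 4% for H2A.W.6 when single chromosomes were left out. No paired analysis was possible because each group has 1 library. Depth is unknown, so a gene with no region may still carry the variant below the authors' limit.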
